A study of Mus musculus with 28 samples.

Results

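The regions described here are stretches of mouse chromatin that carried acetylated lysine 27 of histone H3 (H3K27ac) and whose midpoint lay more than 100000 bp from the nearest start site of a protein-coding transcript. Overlapping peaks of 15 libraries were merged into 89050 regions, of which 68906 were called in at least 2 libraries. Of those, 8943 (13.0%) were beyond the distance limit and are called members here, and 59963 were nearer to a start site. All libraries came from an NMuMG subclone, an immortalised epithelial line of the mouse mammary gland that undergoes epithelial-mesenchymal transition (EMT) when given TGF-β. Each of 5 groups had 3 replicates: untreated cells (0h), cells kept for 4h or 24h in TGF-β (2 ng/ml) and the solvent DMSO, and cells with TGF-β and the MEK inhibitor UO126 (25 µM, started 30 min earlier, named ERKi) for the same times. The groups share 1 subclone, and nothing in the labels says whether replicates were separate cultures, so p-values measure the spread between these libraries, which may be technical.

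H3K27ac marks active promoters and enhancers. An enhancer can act on a promoter far away through looping of the chromatin, and wide stretches without genes often flank genes of developmental regulators. The nearest gene is therefore a name for a place here and not a target. The question was whether distal regions were called as often and ranked as high as regions closer to genes, and whether this moved with TGF-β and with the MEK inhibitor.

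The name gene desert held only in part. The midpoints of 6247 members (69.9%) were intergenic, but 2217 (24.8%) lay in an intron and 42 in an exon of a protein-coding gene. A further 437 (4.89%) lay inside a non-coding gene or pseudogene, and 58 lay within 1000 bp of the start of a lincRNA or processed transcript. The median distance of a member was 176352 bp, with 3708 members beyond 200000 bp, 697 beyond 500000 bp and 83 beyond 1000000 bp. DNA beyond the limit made up 39.4% of the assembly and held 8.60 members per Mb, against 37.5 nearer regions per Mb in the remaining DNA. Without regions within 1000 bp of a start site, called promoter regions from here on, the remaining DNA held 28.6 per Mb.

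Some properties of the libraries touch all values. Between 50445 and 69180 peaks were listed per library, and the third replicate had the longest list in all 5 conditions. The library number inside the peak names of ERKi 4h replicate 1 is 864, out of the order of the others (682 to 696), so values at ERKi 4h are also given without it. Of 24 epithelial genes, 12 had a region within 1000 bp of a start site called in all 3 libraries at 0h. No share over other genes is given, so this count does not check the cell type. Cdh1, Ocln and Tjp1 were among them, whereas Epcam, Grhl2 and Esrp1 were not. Peak height was taken as the pileup, the number of fragments over the summit, and was ranked within each list as a percentile (100 is the tallest peak). Read totals are unknown.

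Sequences are shown for 7 members that lead the comparisons at 24h described further on, since base composition set members apart from promoter regions. Each is 200 bp around the highest summit, plus strand of mm9, and capitals mark a match to one of 10 motifs searched on both strands.

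A1bg, higher at 24h, chr15:61073032-61073231: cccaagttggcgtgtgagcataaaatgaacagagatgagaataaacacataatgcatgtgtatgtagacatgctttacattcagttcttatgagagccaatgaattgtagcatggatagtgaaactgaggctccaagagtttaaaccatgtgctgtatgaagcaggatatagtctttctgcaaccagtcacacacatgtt
Lef1, higher at 24h, chr3:130654175-130654374: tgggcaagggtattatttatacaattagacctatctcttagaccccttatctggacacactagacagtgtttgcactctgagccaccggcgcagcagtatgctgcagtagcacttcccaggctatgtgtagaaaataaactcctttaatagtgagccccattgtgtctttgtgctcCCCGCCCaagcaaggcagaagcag
1110067D22Rik, lower at 24h, chr11:20856346-20856545: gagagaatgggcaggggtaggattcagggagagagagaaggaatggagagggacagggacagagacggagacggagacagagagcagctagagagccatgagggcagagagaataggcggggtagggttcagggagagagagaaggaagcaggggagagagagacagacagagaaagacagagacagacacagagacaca
Runx1, lower at 24h and higher with ERKi, chr16:93037551-93037750: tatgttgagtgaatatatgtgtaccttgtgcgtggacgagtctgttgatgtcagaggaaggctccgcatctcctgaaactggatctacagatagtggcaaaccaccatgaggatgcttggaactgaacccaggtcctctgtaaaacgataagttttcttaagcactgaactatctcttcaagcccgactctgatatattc
Runx1, lower at 24h and higher with ERKi, chr16:93036795-93036994: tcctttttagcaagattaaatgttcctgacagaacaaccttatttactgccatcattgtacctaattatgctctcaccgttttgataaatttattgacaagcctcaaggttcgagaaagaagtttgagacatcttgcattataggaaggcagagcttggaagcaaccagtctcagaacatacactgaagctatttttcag
Nos1, lower with ERKi at 24h, chr5:118121679-118121878: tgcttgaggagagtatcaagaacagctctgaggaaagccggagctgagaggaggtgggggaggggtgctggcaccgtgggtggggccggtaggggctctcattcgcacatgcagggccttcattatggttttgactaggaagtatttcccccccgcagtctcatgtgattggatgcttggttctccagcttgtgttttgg
Cdkn2b, lower with ERKi at 24h, chr4:89152291-89152490: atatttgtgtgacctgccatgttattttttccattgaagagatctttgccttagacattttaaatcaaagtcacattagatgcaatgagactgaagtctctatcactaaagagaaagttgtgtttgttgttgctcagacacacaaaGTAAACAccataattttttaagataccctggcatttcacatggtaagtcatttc

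The capitals in the Lef1 window match GGGCGGG on the minus strand, letters read by SP and KLF factors. Those in the Cdkn2b window match the forkhead letters TGTTTAC on the minus strand. The other 5 windows held none of the motifs.

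Over all 8943 members the median GC content of such a window was 45.5%, against 48.5% for nearer regions off promoters and 63.0% for promoter regions. The SP/KLF letters were in 0.962% of member windows, 1.91% of nearer windows off promoters and 15.7% of promoter windows (4.63% of all windows). The AP-1 letters TGANTCA, read by Fos and Jun dimers, were in 6.68% of member windows, against 5.76% of nearer windows off promoters and 5.19% of all windows. RUNX letters (TGTGGTT) were in 4.32%, against 4.2% of nearer windows off promoters and 3.75% of all. TEAD letters (ACATTCC) were in 3.33%, against 3.03% and 2.78%, and the forkhead letters in 3.18%, against 2.72% and 2.47%. The E-box CAGGTG, of the kind bound by Snai and Zeb repressors, was in 12.9%, against 15.7% and 15.5%, and the HIF letters ACGTG were in 7.79%, against 8.89% and 10.0%. Long motifs were rare in members, with ETS letters (CCGGAAGT) in 0.168%, against 0.201% and 0.299%, SMAD letters (GTCTAGAC) in 0.190%, against 0.188% and 0.176%, and GRHL letters (AACCGGTT) in 0.0335%, against 0.0393% and 0.0552%. Each motif was counted whether or not it overlapped another, and the shares are descriptions of letters, with no test.

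Members were called less often than nearer regions, and their peaks were lower. Between 46.3% and 71.5% of members were called in a library, against 58.9% to 79.2% of nearer regions. The ratio of both shares, the relative call frequency, was below 1 in 15 of 15 libraries, from 0.755 to 0.958 with a median of 0.846. Its mean log2 value was -0.24, and an exact two-sided sign-flip test over libraries gave p = 6.1e-05, the smallest it can give. Sign-flip tests over all 15 libraries take them as independent, although same-numbered libraries deviated together from their condition means. Their p-values are therefore likely too small. Called members had a mean percentile of 35.8 to 41.9 per library. That was 12.7 to 19.3 points under called nearer regions, with a mean rank difference of -16.5 points (exact sign-flip p = 6.1e-05).

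The gap in call frequency was small once promoter regions were set aside. Against nearer regions off promoters the relative call frequency was 0.877 to 1.02, above 1 in 4 libraries, with a mean log2 value of -0.066 (exact sign-flip p = 0.00244). The rank difference was -7.98 points on average, from -9.19 to -6.86 (exact sign-flip p = 6.1e-05).

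Peak height went down with distance over the whole range, and call frequency did so mainly close to the start site. The mean percentile of a region, over the libraries calling it, was 68.8 within 1 kb, 42.8 at 1 to 10 kb, 36.2 at 10 to 50 kb and 34.2 at 50 to 100 kb. Among members it was 32.1 at 100 to 200 kb, 28.7 at 200 to 500 kb and 24.9 beyond 500 kb. The share of regions called in all 15 libraries was 80.3% within 1 kb and 29.6% at 1 to 10 kb, and in the 3 classes of members it was 26.3%, 23.5% and 21.7%. There was no step at the limit: 1083 regions at 90000 to 100000 bp had a mean percentile of 33.3 and were called in 8.62 libraries on average, and 872 members at 100000 to 110000 bp had 32.6 and 8.50.

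The local background that the peak caller estimated was lower for members as well. Its median was 11.9 fragments in promoter regions, 5.74 in nearer regions off promoters and 4.08 in members, and 3.29 beyond 500 kb. The median fold enrichment over it was 4.14 in nearer regions off promoters, 4.45 in members and 4.69 beyond 500 kb. Ranked by fold enrichment in place of pileup, members were 2.75 points under all nearer regions (exact sign-flip p = 6.1e-05). That reference includes the promoter regions, whose median fold enrichment was 7.14, so it does not compare members with other distal regions. Median widths were alike, 742 bp for members and 729 bp for nearer regions off promoters. Members inside protein-coding genes had a mean percentile of 30.7 and the others 30.3.

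**Figure D1:**
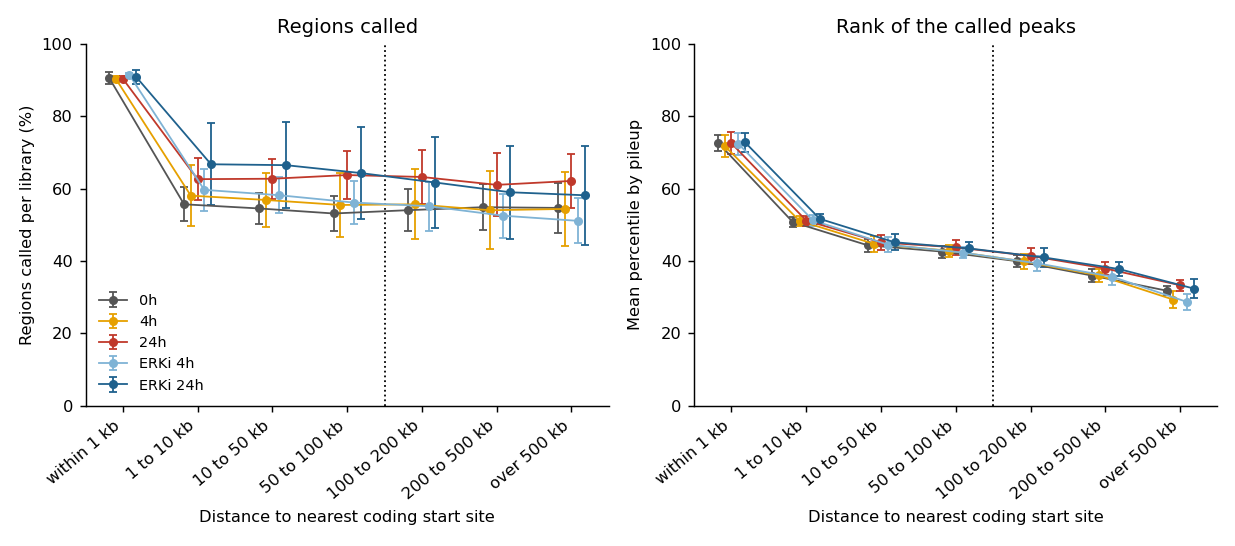
Left, percentage of regions called per library by distance to the nearest protein-coding start site. Right, mean percentile by pileup of the called peaks. Points are means and bars SDs over the 3 libraries of a condition, and classes right of the dotted line are members. Percentiles were lower at larger distances in all 5 conditions, and most of the drop in call frequency lay between the first classes.

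Few members had peaks among the tallest. A mean percentile of 90 or more was reached by 111 members (1.24%), by 3.41% of nearer regions off promoters and by 21.0% of promoter regions. None of the 697 members beyond 500 kb reached it. The 5 tallest members called in all libraries fell into different kinds. Chl1, a neural cell adhesion gene, held one in an intron (chr6:103598933-103599391) that was only 459 bp wide, with a mean fold enrichment of 55.6. Another lay 373 kb downstream of the potassium channel gene Kcnh5, with a fold enrichment of 41.8. In the limma test used for single members further on, neither passed in any of the 4 contrasts. With replicate number as a block, Kcnh5 passed at 24h against 0h (limma adjusted p = 0.00489) and with ERKi at 24h (limma adjusted p = 0.0243).

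Glis3, a zinc finger factor gene, held a pair of tall members in an intron, at chr19:28632201-28634335 and chr19:28634519-28636748. Their mean local background was 469.1 and 464.9 fragments and their fold enrichment 3.57 and 2.76, so they were tall over a tall surrounding. The fifth lay 262 kb downstream of Fzd1, a Wnt receptor gene, and was at 99.4–99.5 at 0h and 99.7–99.8 at 24h (log2 change 0.46 ± 0.11, limma adjusted p = 0.00833, 0.0594 without 24h replicate 1). The member farthest from a start site lay 2200 kb upstream of Pcdh17, a protocadherin gene, and was called in 24h replicates 1 and 2 alone, at 9.69 and 11.

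Set against all nearer regions, the relative call frequency did not differ between conditions beyond the replicate spread. In replicates 1 to 3 it was 0.876, 0.805 and 0.898 at 0h, 0.809, 0.797 and 0.924 at 4h, and 0.886, 0.846 and 0.958 at 24h. With ERKi it was 0.777, 0.798 and 0.867 at 4h and 0.844, 0.755 and 0.903 at 24h. The third replicate was highest in every condition, and the ranges of the conditions overlapped. Conditions took up 24.1% of the sum of squares (exact permutation p = 0.544, adjusted p = 0.720 over 6 comparisons), and with replicate number as a block the exact p was 0.0482 (adjusted p = 0.188). Against nearer regions off promoters, the ratio was 0.990, 0.957 and 1.02 at 24h and 0.908, 0.877 and 0.947 at ERKi 24h, without overlap. At 4h it was 0.949, 0.930 and 1.01 with DMSO and 0.895, 0.926 and 0.953 with ERKi, with overlap. ERKi was lower in every same-numbered pair on this reference.

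Single contrasts of call frequency against all nearer regions were within the spread too when libraries were not paired. The mean difference was -0.0158 for 4h and 0.0372 for 24h against 0h, and -0.0295 for ERKi 4h and -0.0629 for ERKi 24h against DMSO at the same time. Exact two-sided permutation gave p = 0.9, 0.5, 0.6 and 0.4, and with 3 against 3 libraries it cannot go below 0.1. Within replicate numbers, ERKi 24h was lower than 24h in 3 of 3 pairs. In 3 of 3 pairs 24h was higher than 0h, by 0.00931, 0.0420 and 0.0604 (exact sign-flip p = 0.25 over pairs for either contrast). That rise did not hold against nearer regions off promoters. There the ratio was 1.004, 0.960 and 1.018 at 0h and 0.990, 0.957 and 1.024 at 24h, lower at 24h in replicates 1 and 2. With all nearer regions as the reference, the ERKi libraries differed by -0.0462 over both times (exact permutation p = 0.210, adjusted p = 0.720). With replicate number as a block, the exact sign-flip p was 0.0625 (adjusted p = 0.188), where the smallest possible is 0.03125. Without ERKi 4h replicate 1, the difference was -0.0111 at 4h and -0.0370 over both times.

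Rank differences of pileup gave no difference between conditions without the block and one with it. They were -17.2 ± 1.74 points at 0h, -17.0 ± 2.22 at 4h, -15.1 ± 2.15 at 24h, -17.5 ± 2.30 at ERKi 4h and -15.4 ± 2.46 at ERKi 24h (SD, n = 3). Conditions took up 23.2% of the sum of squares (exact permutation p = 0.567, adjusted p = 0.960). With replicate number as a block, the exact p was 0.0034 (adjusted p = 0.0204). Within replicate numbers, members stood closer to nearer regions at 24h than at 0h, by 1.64, 1.91 and 2.62 points.

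Against nearer regions off promoters, the conditions differed without the block (81.9% of the sum of squares, exact permutation p = 0.00237, adjusted p = 0.0142). The rank difference was then -8.01 ± 0.278 at 0h, -8.51 ± 0.055 at 4h, -7.03 ± 0.160 at 24h, -8.82 ± 0.318 at ERKi 4h and -7.52 ± 0.702 at ERKi 24h (SD, n = 3). By the mean, both groups at 24h were thus closest to the other distal regions. Libraries of ERKi 24h ran from -8.33 to -7.08 and overlapped those of 0h, from -8.26 to -7.71, and this order was not tested.

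The ERKi contrast of ranks took its sign from the scale. By pileup, ERKi libraries were 0.413 points lower than DMSO libraries over both times by the mean (a difference of -0.413, exact permutation p = 0.715, adjusted p = 0.960), or -0.209 without ERKi 4h replicate 1. With replicate number as a block, the exact sign-flip p was 0.0625 (adjusted p = 0.188). By fold enrichment ERKi libraries were 1.03 points higher (exact permutation p = 0.01, adjusted p = 0.03). No direction is given for it.

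**Figure D2:**
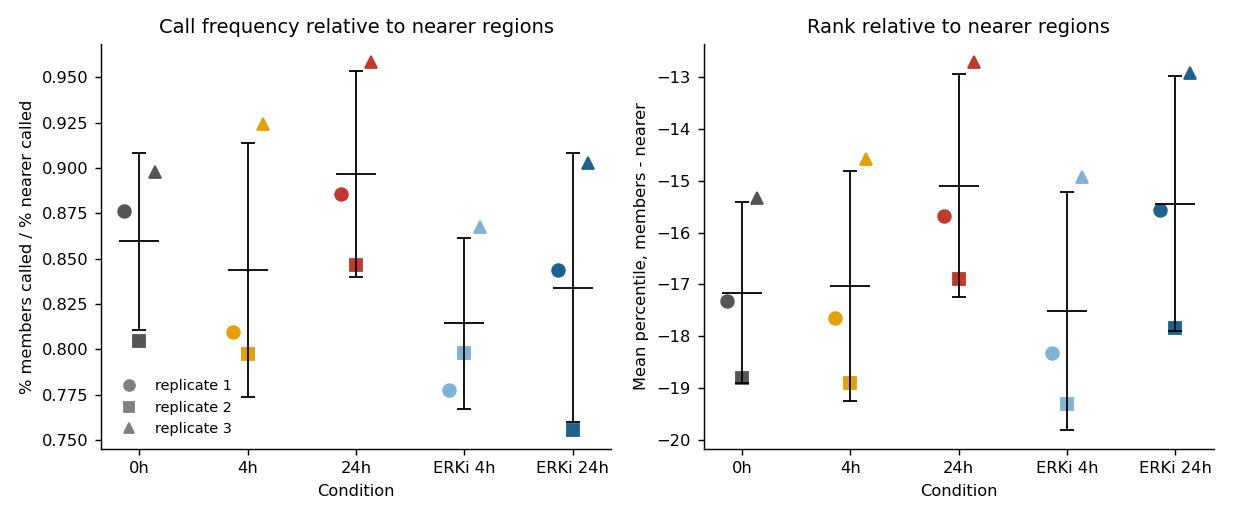
Left, percentage of members called divided by the percentage of nearer regions called. Right, mean percentile by pileup of called members minus that of called nearer regions, in points. Each symbol is a library, its shape the replicate number, with the mean and SD of 3 libraries. The third replicate lies highest in every condition, and conditions overlap.

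More members passed the test at 24h of TGF-β than in any of the other 3 contrasts. Log2 pileup was compared by limma in the 26934 regions with a peak in every library. These held 2237 members, so 6706 members were not tested this way. Changes of single members are log2 differences in pileup ± SE from that fit, and levels are percentiles in replicates 1 to 3 or their range. At 24h against 0h, 441 members (19.7%) were higher and 319 (14.3%) lower at an adjusted p under 0.05, against 10.3% and 7.85% of all tested regions. Nearer regions off promoters gave 16.2% and 11.3%, and promoter regions 1.5% and 2.57%. Members thus lay near other distal regions and far from promoters in how often they changed. With replicate number as a block, 705 members were higher and 612 lower (31.5% and 27.4%), against 17.6% and 20.1% of all tested regions, so that lower calls were the more frequent over all regions and not among members. The 24h libraries enter this contrast and the ERKi contrast at 24h alike, and those at 4h both contrasts at 4h.

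The balance of gains and losses at 24h depended on centring. Higher members were 58.0% of those called, but 73.5% when libraries were centred on promoter regions (299 higher, 108 lower) and 68.9% when missing peaks were set to the lowest pileup of the library so that all members entered. Without 24h replicate 1 the lower share was 8.40%, and without 0h replicate 3 it was 8.99%.

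The changes called in pileup were smaller on fold enrichment, the height over the local background. The median log2 change of members called higher at 24h was 1.13 in pileup and 0.13 in fold enrichment, and that of members called lower -1.10 and -0.10. The sign on fold enrichment was the same for 65.5% of the higher and 61.4% of the lower members. On that scale limma called 84 members higher and 72 lower. Of the members named below as higher at 24h, those near Lef1, Ncald, Acvr2a, Foxq1 and Dkk2 also passed on fold enrichment, and those near A1bg, Areg, Fzd1 and Hmga2 had the opposite sign there. Of those named as lower, the ones near Epha4 and Tgfbr2 passed and those near Gm3495, Pcdh10 and Sall3 had the opposite sign. All verbs for single members refer to pileup.

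Lef1 encodes a transcription factor of Wnt signalling. The member 159 kb upstream of it, at chr3:130653058-130654811, had percentiles of 54.4, 55.6 and 52.2 at 0h, 88.0, 88.1 and 93.8 at 4h and 98.3, 99.0 and 99.5 at 24h. These groups did not overlap, and the log2 pileup rose by 24h (2.33 ± 0.16, limma adjusted p = 2e-07), as did fold enrichment (0.50 ± 0.12, limma adjusted p = 0.0200). With ERKi at 24h it was at 98.4, 97.8 and 98.8 (log2 difference -0.15 ± 0.16, limma adjusted p = 0.677).

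Ncald encodes neurocalcin delta, a calcium sensor. The member in its intron, at chr15:37537567-37538535, was at 14.6, 12.6 and 4.50 at 0h, 75.9, 70.7 and 82.8 at 4h and 92.3, 89.4 and 96.5 at 24h. It had the lowest adjusted p of any member at 4h (2.57 ± 0.24, limma adjusted p = 1.4e-05), and its log2 change at 24h was 3.32 ± 0.24, limma adjusted p = 2.4e-07 (fold enrichment 0.71 ± 0.12, limma adjusted p = 0.00263). The member 321 kb upstream of A1bg, at chr15:61072225-61074909, went from 27.6–45.8 at 0h to 96.1–98.1 at 24h (2.60 ± 0.18, limma adjusted p = 2e-07). Its fold enrichment was 6.06, 4.02 and 4.25 at 0h and 4.29, 5.21 and 4.49 at 24h, which overlapped. With ERKi at 24h it was at 90.8, 80.2 and 91.3, below each DMSO library (-0.61 ± 0.18, limma adjusted p = 0.0479). That call was lost on leaving out any of 11 of the 15 libraries, with an adjusted p of up to 0.198 without ERKi 24h replicate 2. With replicate number as a block its limma adjusted p was 0.000479. On fold enrichment the ERKi contrast had the opposite sign and did not pass (0.36 ± 0.14, limma adjusted p = 0.253).

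Runx1 encodes a transcription factor of blood and epithelial cells. Adjacent members 210 kb upstream and 212 kb upstream of it led the losses and, being neighbours, are not independent. The one at chr16:93037205-93038444 was at 86.8, 84.9 and 90.4 at 0h, 82.3, 77.5 and 91.7 at 4h and 43.2, 23.9 and 41.1 at 24h, and with ERKi at 24h at 80.7, 66.2 and 87.3. Low percentiles were thus found at 24h with DMSO alone, with no overlap with the other groups. Its log2 change was -2.08 ± 0.22, limma adjusted p = 7.4e-06 for 24h against 0h, and 1.62 ± 0.22, limma adjusted p = 0.000400 for ERKi 24h against 24h. On fold enrichment the values were -0.17 ± 0.14, limma adjusted p = 0.633 and 0.33 ± 0.14, limma adjusted p = 0.300. The other, at chr16:93036369-93037197, was at 5.16, 2.65 and 25.8 at 24h and 61.3, 50.5 and 72.8 with ERKi (1.83 ± 0.26, limma adjusted p = 0.000498).

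The lowest adjusted p among losses belonged to a member 126 kb upstream of 1110067D22Rik, at chr11:20855882-20857607. It was at 98.5–99.1 at 0h and 76.7–86.2 at 24h (-1.27 ± 0.13, limma adjusted p = 6.4e-06), and at 92.2–96.1 with ERKi at 24h (0.65 ± 0.13, limma adjusted p = 0.00615). Its fold enrichment was 3.90, 3.65 and 3.74 at 0h and 3.86, 3.37 and 3.61 at 24h, which overlapped.

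**Figure D3:**
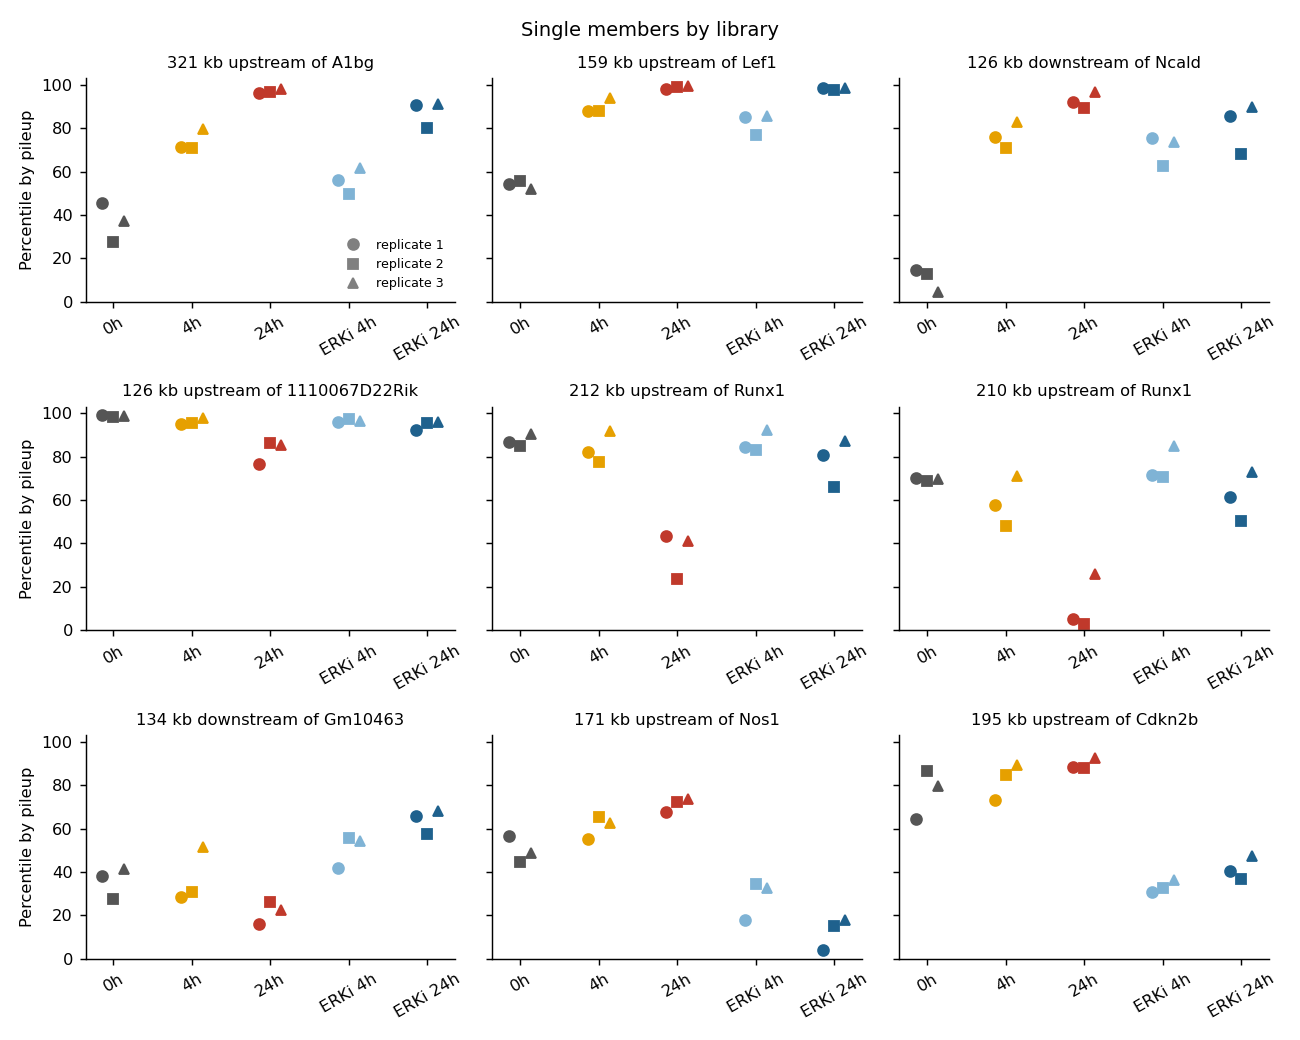
Percentile by pileup of 9 members in each of the 15 libraries, by condition, with symbol shapes for replicate numbers. Each was called in every library, and titles give the distance and side of the nearest protein-coding start site. The members near A1bg, Lef1 and Ncald are high at 24h, those near Runx1 are low at 24h with DMSO, and the one near Cdkn2b is low in both ERKi groups.

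Calls that were present in all 3 libraries of one group and in none of the other were counted as well, with no test. At 24h, 774 members (8.65%) were gained and 383 (4.28%) lost against 0h, beside 6.35% and 2.68% of all kept regions, and 7.62% and 3.00% of nearer regions off promoters. Most were low, with a median percentile of 26.2 for gained and 17.8 for lost members. Of the gained, 44 had another region within 1000 bp that was called throughout 0h, and of the lost, 42 had one called throughout 24h.

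The tallest gained member lay nearest to Gm22, at chr8:124668253-124668643, at 97.6, 92.2 and 98.6 at 24h. It was called in the 12 libraries with TGF-β, over a mean background of 62.4 fragments. Tns3 encodes tensin 3, an adaptor of focal adhesions. A member in one of its exons, at chr11:8350717-8351673, had no peak at 0h, was at 43.9, 43.4 and 62.6 at 4h and at 93.7, 91.7 and 98.3 at 24h, and had no such neighbour. The tallest lost members, nearest to Sall3 and 8030423J24Rik, each had a neighbour within 1000 bp that was still called at 24h.

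At 4h the changes were fewer and more of them were gains. limma called 139 members (6.21%) higher and 13 (0.581%) lower, against 3.62% and 0.197% of all tested regions, and 5.94% and 0.278% of nearer regions off promoters. Under the block, 421 were higher and 221 lower (18.8% and 9.88%), against 11.8% and 5.87% of all tested regions. Higher members were 91.4% of those called, 80.8% after quantile normalisation and 65.6% with the block. Without 0h replicate 1 or 4h replicate 3 the higher share was 3.17%, and without 4h replicate 1 it was 3.71%. The lower share was 0.0894% without 4h replicate 1, 0.134% without 0h replicate 1, and 0.179% without 0h replicate 3 or 4h replicate 2. In calls, 156 members (1.74%) were gained and 84 (0.939%) lost, beside 1.49% and 0.512% of all kept regions.

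Pdgfc encodes a ligand of PDGF receptors. The member 341 kb downstream of it, at chr3:81179992-81182458, was at 22.7, 15.1 and 22.3 at 0h, 67.6, 65.5 and 63.7 at 4h and 81.3, 88.1 and 89.3 at 24h (4h against 0h 1.77 ± 0.19, limma adjusted p = 3.9e-05, fold enrichment 0.35 ± 0.15, limma adjusted p = 0.611). Epha4 encodes an ephrin receptor. A member 871 kb downstream of it, at chr1:76640625-76641598, fell, from 69.2–75.4 in untreated cells to 43.1–52.9 at 4h (-1.03 ± 0.21, limma adjusted p = 0.00854, fold enrichment -0.082 ± 0.11, limma adjusted p = 0.997) and was at 25.9–28.3 at 24h. The member 238 kb upstream of Gm3495 fell from 82.4–97.8 to 54.9–70.7 at 4h (-1.37 ± 0.27, limma adjusted p = 0.00539, 0.0502 without 0h replicate 1).

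The tallest calls that came or went at 4h were weak over their surroundings. The gained one, nearest to Klf14, had a fold enrichment of 1.55 over 116.7 fragments and a neighbour within 1000 bp that was called throughout 0h. The lost one, 209 kb upstream of Tsc22d2, was at 64.3–70.1 at 0h, absent at 4h and 24h, and at 51.6–64.2 at ERKi 24h.

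**Figure D4:**
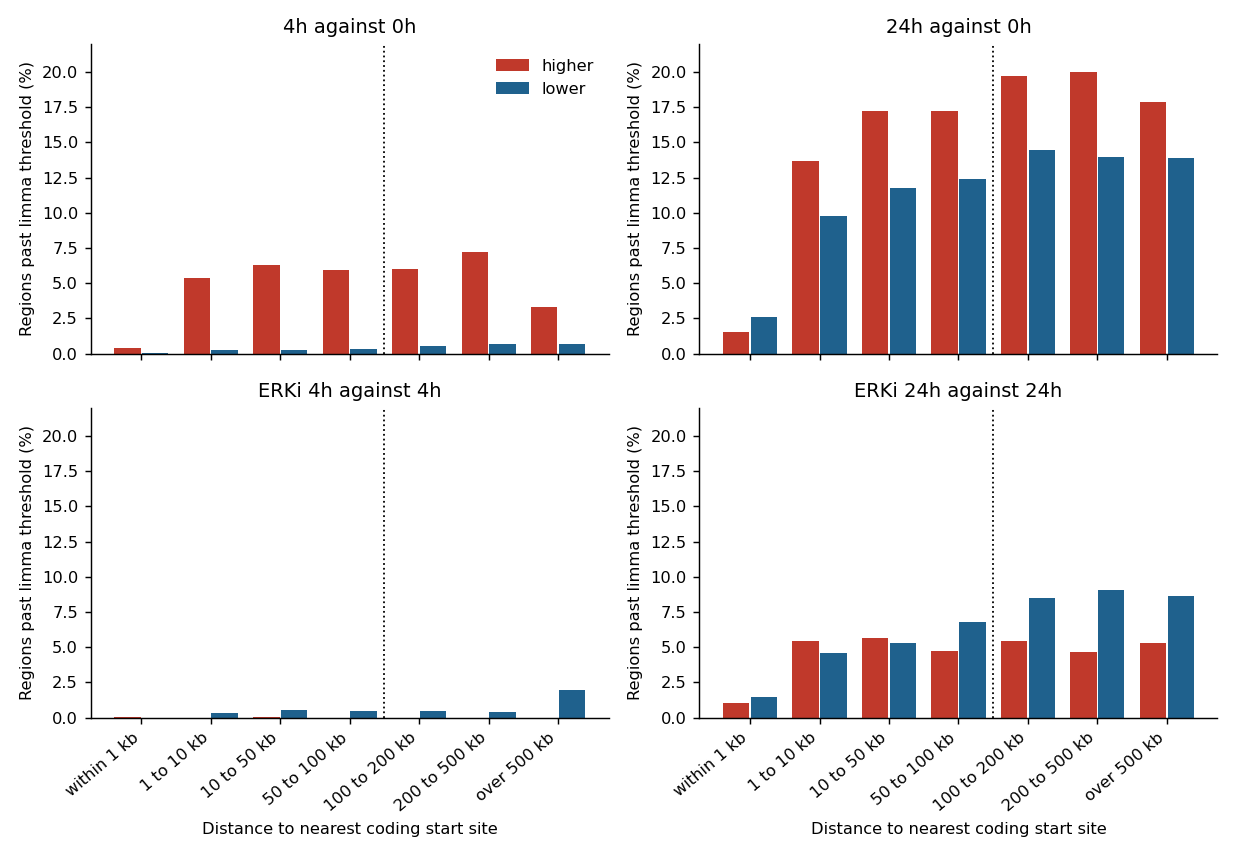
Percentage of regions past the limma threshold (adjusted p under 0.05), of those with a peak in every library, by distance to the nearest protein-coding start site and for 4 contrasts. Red bars are higher and blue bars lower in the group named first, and classes right of the dotted line are members. At 24h against 0h the higher share was 1.5% within 1 kb and 19.8% at 100 to 200 kb.

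Under ERKi at 24h more members were lower than higher by pileup, and fewer by fold enrichment. limma called 194 members (8.67%) lower and 116 (5.19%) higher than with DMSO, against 3.97% and 3.53% of all tested regions. Nearer regions off promoters gave 5.35% lower and 5.41% higher. By distance the lower share was 4.58% at 1 to 10 kb, 5.29% at 10 to 50 kb and 6.80% at 50 to 100 kb, and among members 8.50%, 9.03% and 8.61% in the 3 classes. The higher share was 4.65% to 5.62% over these classes. Under the block, 473 members were lower and 387 higher (21.1% and 17.3%), against 13.1% and 15.0% of all tested regions, where higher calls were the more frequent.

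This balance depended on the scale. Higher members were 37.4% of those called, 15.5% when centred on promoter regions (11 higher, 60 lower), and 61.0% on log2 fold enrichment (25 higher, 16 lower), where the direction turned. Of the members lower by pileup, 64.9% had the same sign on fold enrichment, and those near Cdkn2b, Tank, A1bg, Hmga2 and Fam84a did not. Without ERKi 24h replicate 1 the lower share was 4.83%, and without 24h replicate 3 it was 4.96%. The higher share was 1.43% without ERKi 24h replicate 3, 1.65% without 24h replicate 1 and 3.26% without ERKi 24h replicate 2. In calls, 247 members (2.76%) were lost and 159 (1.78%) gained, beside 1.56% and 1.92% of all kept regions, and 1.69% and 2.41% of nearer regions off promoters.

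Cdkn2b encodes p15, an inhibitor of cyclin-dependent kinases that TGF-β is known to induce. The member 195 kb upstream of it, at chr4:89151556-89152779, was at 88.3, 87.9 and 92.8 at 24h with DMSO and at 40.4, 36.7 and 47.4 with ERKi (-2.07 ± 0.24, limma adjusted p = 0.000113). At 4h it was at 73.3, 84.6 and 89.3 with DMSO and 30.6, 32.7 and 36.3 with ERKi (-1.94 ± 0.24, limma adjusted p = 0.00141). By pileup, all ERKi libraries were below all others. By fold enrichment they overlapped, with 3.76, 4.58 and 3.69 at 24h with DMSO and 4.11, 3.91 and 4.82 with ERKi. For 24h against 0h, where it was at 64.6–86.4, its log2 difference was 0.53 ± 0.24, limma adjusted p = 0.142 (0.00898 with the block). On fold enrichment that contrast had the opposite sign and passed (-0.86 ± 0.15, limma adjusted p = 0.00401).

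Nos1 encodes a nitric oxide synthase. The member 171 kb upstream of it, in an intron of the kinase scaffold gene Ksr2, was at 67.5, 72.1 and 73.6 at 24h with DMSO and 4.21, 15.3 and 17.9 with ERKi (-2.37 ± 0.27, limma adjusted p = 0.000113). Tank encodes an adaptor of TRAF signalling. The member 283 kb upstream of it, at chr2:61132812-61134854, was at 25.8–31.0 at 0h, 88.9, 81.5 and 93.2 at 24h and 42.2, 42.3 and 45.9 at ERKi 24h (-1.92 ± 0.23, limma adjusted p = 0.000141). A member in an intron of Bre, nearest to Gm10463, rose from 16.0–25.9 with DMSO to 57.4–68.3 with ERKi (1.57 ± 0.25, limma adjusted p = 0.000976). By pileup, none of these overlapped between DMSO and ERKi at 24h. Fold enrichment overlapped for Tank, at 7.17, 7.38 and 7.26 with DMSO and 7.06, 8.08 and 8.64 with ERKi, and did not for Nos1 (-0.48 ± 0.17, limma adjusted p = 0.194) or Gm10463 (0.52 ± 0.13, limma adjusted p = 0.0624), neither of which passed on that scale.

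The tallest calls lost or gained with ERKi at 24h lay in crowded places. The lost ones lay 121 kb upstream of Klf14 and 454 kb upstream of Myc, at 92.9–96.9 and 90.2–93.0 with DMSO. Their fold enrichment was 1.68 and 2.26. The gained ones lay 345 kb downstream of Myc and 154 kb upstream of Tmc1. All 4 had another region within 1000 bp that was called throughout the other group.

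At 4h of ERKi, limma called 12 members (0.536%) lower and 0 higher, against 0.26% and 0.00743% of all tested regions. At an unadjusted limma p under 0.05, 206 members were lower and 34 higher (9.21% and 1.52%, against 4.06% and 1.62% of all tested regions). Under the block, 175 were lower and 22 higher (7.82% and 0.983%), against 3.46% and 0.839% of all tested regions. The lower share was 0.0447% without any 1 of ERKi 4h replicate 1, 4h replicate 1 and 4h replicate 3, and 0.268% without ERKi 4h replicate 3. In calls, 70 members (0.783%) were lost and 23 (0.257%) gained, beside 0.406% and 0.286% of all kept regions, and without ERKi 4h replicate 1 the shares were 1.02% and 0.928%.

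After Cdkn2b, the lowest adjusted p belonged to a member 150 kb upstream of Fam84a. It was at 57.9, 54.0 and 57.7 with DMSO and 27.8, 16.4 and 25.5 with ERKi at 4h (-1.27 ± 0.19, limma adjusted p = 0.00843, fold enrichment -0.20 ± 0.14, limma adjusted p = 1.00). By pileup its limma adjusted p was 0.0799 without 4h replicate 1, 0.0580 without 4h replicate 3 and 0.0537 without ERKi 4h replicate 1. The tallest lost call lay 122 kb downstream of Gadd45g, a stress response gene, and the tallest gained call 123 kb upstream of Psd3, with fold enrichments of 2.10 and 2.19. A difference between the ERKi effects at 24h and 4h was tested by limma and passed in 0 regions, with 197 members (8.81%) at an unadjusted p under 0.05, against 5.64% of all tested regions. With the block 143 members (6.39%) passed the adjusted threshold, against 4.38% of all.

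Members were spread over many genes. They were nearest to 1741 genes, with a median of 3 members each, and 259 genes had at least 10. Myc, a growth-promoting transcription factor, had the most (79), followed by the transcriptional co-regulator Cited2 (52), the corepressor subunit Tbl1xr1 (45) and the Notch ligand Jag1 (39). Agap1 had 36, the chromatin remodelling subunit Arid1b and N6amt1 had 35 each, Sox4 had 33, and Lpp and Runx1 had 32 each. These 10 genes held 418 members, 4.67% of all. Their limma counts are to be read against all members in the fit, of which 19.7% were higher and 14.3% lower at 24h. Under ERKi at 24h, 5.19% of these were higher and 8.67% lower. All tested regions gave 10.3% and 7.85% at 24h, and 3.53% and 3.97% under ERKi.

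Of the 79 members nearest to Myc, 52, 42 and 49 were called at 0h, 36, 42 and 49 at 4h and 50, 59 and 62 at 24h. With ERKi, 38, 43 and 45 were called at 4h and 50, 40 and 54 at 24h. The 24h libraries lay above all those at 4h with and without ERKi, and other pairs of conditions overlapped. Of all members, on average 54.4% were called at 0h, 55.0% at 4h, 62.4% at 24h, 53.9% at ERKi 4h and 60.5% at ERKi 24h. Of the 24 near Myc with a peak in every library, 6 were lower and 0 higher under ERKi at 24h, with a median log2 difference of -0.44 against 0.021 over all tested regions. On fold enrichment 0 of them passed and the median was 0.19, of the opposite sign. At 24h against 0h, 3 were higher and 1 lower. The member 300 kb downstream, chosen after its values were seen, was lower with ERKi at 4h (log2 difference -0.85, limma adjusted p = 0.0124) and at 24h (-0.95, limma adjusted p = 0.000652).

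Of the 39 members nearest to Jag1, 9 were in the fit. At 24h against 0h 3 were higher and 0 lower, beside 19.7% and 14.3% of all members in the fit. Under ERKi at 24h 4 others were lower and 0 higher, beside 8.67% and 5.19%. On fold enrichment 0 were higher at 24h, and under ERKi at 24h 1 was lower and 1 higher. The member 538 kb upstream of Jag1, at chr2:137479080-137481573, was at 10.4, 2.26 and 18.5 at 0h, 57.4, 49.2 and 60.2 at 4h and 95.6, 69.9 and 94.9 at 24h (3.07 ± 0.32, limma adjusted p = 6.2e-06). With ERKi at 24h it was at 91.3, 74.0 and 94.4, with a log2 difference of -0.028 ± 0.32 from DMSO.

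Near Runx1 the members that passed under ERKi were higher, and the difference from those near Myc was not tested. Of 8 in the fit, 3 were higher and 0 lower under ERKi at 24h, with a median log2 difference of 0.73 in pileup and 0.016 in fold enrichment, where 0 passed, and at 24h against 0h 2 were higher and 3 lower. Of all 32, 15, 13 and 13 were called in the 0h libraries, 17, 14 and 22 in those of 4h and 18, 12 and 19 in those of 24h. With ERKi the counts were 22, 19 and 25 for 4h and 28, 16 and 27 for 24h. The ERKi count was above the DMSO count of the same number in 3 of 3 pairs at either time, although the groups overlapped, and lay above all those at 0h. Of all members, 49.3%, 49.0% and 66.7% were called at 4h and 50.2%, 50.2% and 61.4% at ERKi 4h. At 24h the shares were 59.5%, 56.4% and 71.3% with DMSO and 63.7%, 46.3% and 71.5% with ERKi.

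**Figure D5:**
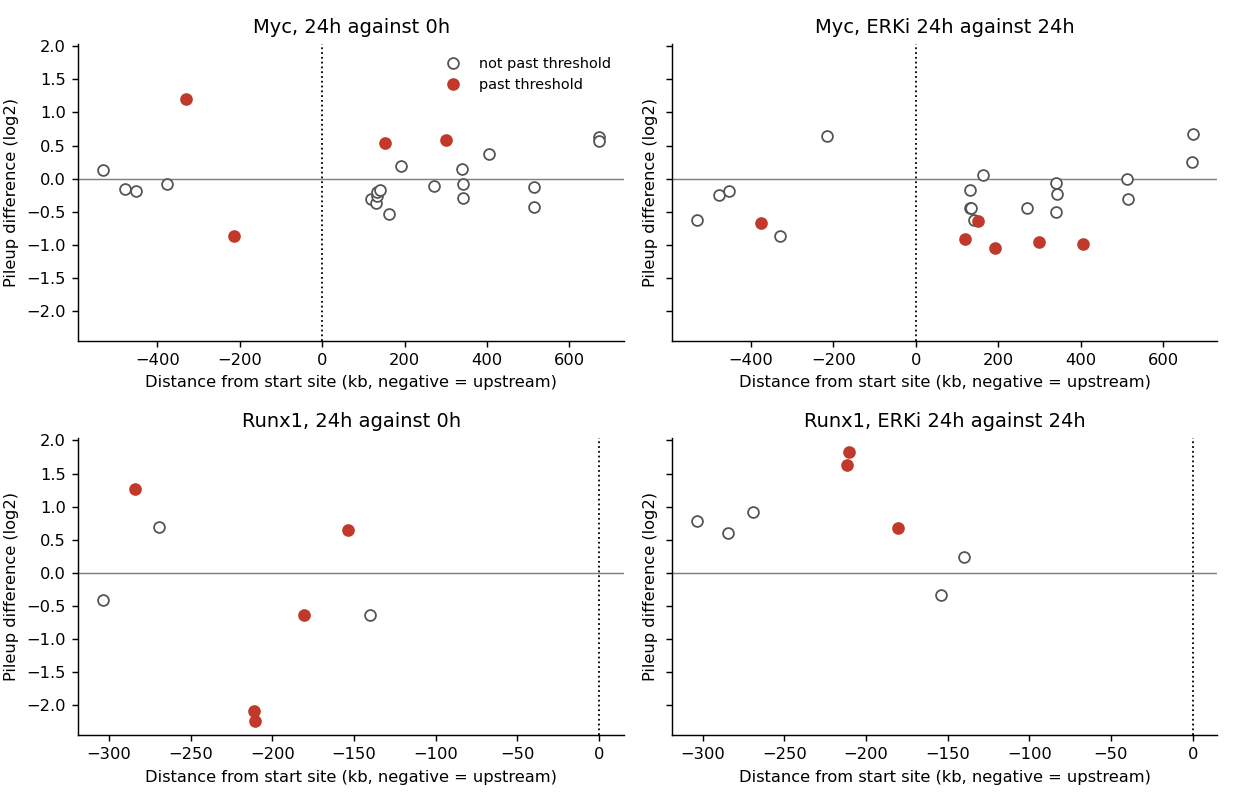
Log2 difference in pileup of the members nearest to Myc (top) and Runx1 (bottom) against their distance from the start site in kb, for 24h against 0h (left) and ERKi 24h against 24h (right). Only members with a peak in every library are drawn, and filled points passed the limma threshold. Under ERKi, 6 of 24 points near Myc are filled and below 0, and 3 of 8 near Runx1 are filled and above 0; on fold enrichment none of these passed.

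Lists of genes with roles in EMT and signalling were read by nearest gene, with no test over a list. Their counts are by median-centred pileup, to be read against 19.7% higher and 14.3% lower of all members in the fit at 24h (10.3% and 7.85% of all tested regions), and 5.19% and 8.67% of members under ERKi (3.53% and 3.97%). Of 12 genes of EMT transcription factors 7 had 36 members, 6 of them in the fit. The one 175 kb upstream of Tcf4 rose at 24h (0.91 ± 0.30, limma adjusted p = 0.0389), a call lost without any 1 of 6 libraries (limma adjusted p up to 0.196, without 0h replicate 2). With the block its limma adjusted p was 0.000271, and on fold enrichment it did not pass (0.047 ± 0.18, limma adjusted p = 0.940). Of the 36, 6 were gained and 1 lost as all-or-none calls at 24h, beside 8.65% and 4.28% of all members and 6.35% and 2.68% of all kept regions. Zeb1 encodes a repressor of epithelial genes. The member 126 kb upstream of it was at 38.2, 15.1 and 30.4 at 0h, 50.5, 40.7 and 52.7 at 24h (0.71 ± 0.26, limma adjusted p = 0.0676, 0.00129 with the block) and 77.6, 60 and 85.7 at ERKi 24h (1.03 ± 0.26, limma adjusted p = 0.0207). The adjusted p of the latter was 0.0757 without 24h replicate 2, 0.0599 without ERKi 24h replicate 1 and 0.109 without ERKi 24h replicate 3. On fold enrichment this member passed as higher at 24h against 0h (0.63 ± 0.11, limma adjusted p = 0.00300). Under ERKi at 24h it did not pass on that scale (0.059 ± 0.11, limma adjusted p = 0.879). The member 108 kb upstream of Twist2, another EMT factor, did not pass at 24h (-0.62 ± 0.26, limma adjusted p = 0.113) and did so with the block, as lower (limma adjusted p = 0.000474).

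Of 24 epithelial genes only 3 had members, 7 in all. The member 112 kb upstream of Tjp1, which encodes the tight junction protein ZO-1, fell from 92.0–97.3 at 0h to 58.3–75 at 24h (-1.49 ± 0.20, limma adjusted p = 4.9e-05). The one 112 kb upstream of Grhl2, an epithelial factor, was at 46.9–61.1 and 46.4–57.6 (-0.11 ± 0.22, limma adjusted p = 0.828). Under ERKi at 24h it did not pass by pileup (-0.54 ± 0.22, limma adjusted p = 0.162) and was lower on fold enrichment (-0.62 ± 0.12, limma adjusted p = 0.0206).

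In the TGF-β and BMP pathway 17 of 43 genes had 143 members. Of 45 in the fit, 6 were higher and 5 lower at 24h, and 0 were higher and 10 lower under ERKi at 24h. These were 13.3% and 11.1% at 24h, below the shares of all members, and 22.2% lower under ERKi. On fold enrichment, 2 were higher and 0 lower under ERKi. Centred on promoter regions, 7 of 45 were lower and 0 higher under ERKi at 24h, beside 60 lower and 11 higher of all 2237 members in the fit. Among receptors, a member 277 kb upstream of the activin receptor gene Acvr2a rose at 24h (2.23 ± 0.31, limma adjusted p = 8.3e-05), and one 139 kb upstream of Tgfbr2, the type II receptor of TGF-β, fell (-1.25 ± 0.26, limma adjusted p = 0.00223). Among ligands, a member nearest to Tgfb3, in an intron of Ttll5, rose (2.09 ± 0.25, limma adjusted p = 2.1e-05). None of these 3 passed under ERKi at 24h.

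Of 35 genes of the ERK pathway and its feedback 6 had 119 members, 79 of them near Myc. Under ERKi at 24h, 8 of 35 in the fit (22.9%) were lower and 0 higher, 6 of them being the members near Myc already given. On fold enrichment 0 were lower and 1 higher. Centred on promoter regions, 1 of 35 was lower (2.86%) and 0 higher, beside 60 lower and 11 higher of all 2237 members in the fit. Dusp4 encodes a phosphatase that acts on ERK. The member 229 kb upstream of it fell, from 74.6–85.3 in untreated cells to 24.2–37.9 at 24h (-1.99 ± 0.26, limma adjusted p = 5.3e-05), and with ERKi it was at 23.7, 15.3 and 46.7. Another, 330 kb upstream of Myc, rose at 24h (1.20 ± 0.28, limma adjusted p = 0.00470), as did one 102 kb downstream of Areg, a ligand of the EGF receptor (0.77 ± 0.18, limma adjusted p = 0.00568). The AP-1 factor genes had 21 members near 2 of 14 genes, and 0 of 3 in the fit passed at 24h, among them one 109 kb upstream of Jun (0.30 ± 0.18, limma adjusted p = 0.289) and one 154 kb upstream of Maf (-0.92 ± 0.32, limma adjusted p = 0.0514, 0.00162 with the block).

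The Sox, Fox, Gata, Runx, Tead and Klf factors had the most, 367 members near 22 of 38 genes, and of 99 in the fit 19 were higher and 16 lower at 24h (19.2% and 16.2%), about the shares of all members. Foxq1 encodes a forkhead factor. The member 165 kb upstream of it was at 5.80, 15.1 and 9.52 at 0h and 75.4, 59.2 and 82.7 at 24h (2.38 ± 0.29, limma adjusted p = 2.6e-05), and one 179 kb upstream of Klf3 fell (-1.64 ± 0.26, limma adjusted p = 0.000252). For homeobox and other developmental factors 13 of 59 were higher and 8 lower by pileup, and 1 and 3 on fold enrichment. Hmga2 encodes an architectural chromatin protein. The member 140 kb upstream of it was at 34.7, 29.4 and 34.6 at 0h, 89.1, 80.7 and 96.0 at 24h (2.24 ± 0.26, limma adjusted p = 1.5e-05) and 48.2, 35.1 and 61.1 at ERKi 24h (-1.76 ± 0.26, limma adjusted p = 0.000607). Near the nuclear receptor gene Nr2f2 a member rose (2.23 ± 0.27, limma adjusted p = 2.2e-05), and near Sall3 one fell (-2.08 ± 0.27, limma adjusted p = 3.7e-05) and was higher with ERKi (1.46 ± 0.27, limma adjusted p = 0.00260).

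Extracellular matrix and protease genes had 124 members near 14 of 38 genes, and of 46 in the fit 12 were higher and 5 lower at 24h by pileup, and 2 and 0 on fold enrichment. Members upstream of Ctgf (1.64 ± 0.28, limma adjusted p = 0.000422) and Thbs1 (1.55 ± 0.20, limma adjusted p = 3.8e-05), genes of secreted matrix proteins, rose at 24h, and neither passed under ERKi at 24h. On fold enrichment neither passed at 24h against 0h (Ctgf 0.0054 ± 0.17, limma adjusted p = 0.994, Thbs1 0.10 ± 0.17, limma adjusted p = 0.842). Among Wnt, Fgf and Notch genes, 7 of 28 were higher and 4 lower at 24h. Besides those of Jag1 and Pdgfc, the member 142 kb downstream of Dkk2, a secreted modulator of Wnt signalling, was at 5.80, 4.44 and 22.3 at 0h, 73.7, 71.6 and 85.7 at 24h (2.52 ± 0.32, limma adjusted p = 3.4e-05) and 54.4, 17.8 and 44.3 at ERKi 24h (-1.54 ± 0.32, limma adjusted p = 0.00654).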

How the data were processed

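H3K27ac peak lists of 15 ChIP-seq libraries were analysed. Per the labels and the methods, the authors mapped reads to mm9 (Bowtie) and ran MACS2 with its defaults on each library. The control is not given in the sources used here. The deposited fold enrichment is a ratio of pileup to local background, and the authors gave p and q as -log10 values. Lists are not normalised between libraries and depth is unknown. RNA-seq and input samples were not analysed here.

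Peaks overlapping by 1 bp were merged. Distances ran from midpoints to protein-coding start sites of GENCODE vM1 (NCBIM37, the assembly of mm9). Pileups were solved from fold and p, and 25 of 893719 peaks missed by over 0.005 in -log10 p. Exact two-sided permutation tests ran over libraries (400 arrangements within time, 1401400 across the 5 conditions) with Benjamini-Hochberg adjustment over 6 comparisons. limma 3.58.1 (R 4.3.3, trend) was fitted to median-centred log2 pileup with adjustment over all 26934 regions. Scripts (Python 3.11.15) were tested on simulated data.

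Same-numbered libraries deviated together from their condition means (correlation over 0.1 in 30 of 30 pairs, lowest 0.331, mean 0.580), so replicate number was taken as pairing the libraries and is used as a block in an alternative. The regions, lists and tests were chosen with earlier results of these data known. Named members are the 3 with the lowest limma adjusted p and the 2 tallest all-or-none calls per direction at 24h (2 and 1 at 4h), the 10 genes nearest to most members, the 5 tallest members, the farthest, and up to 3 genes per list by the size of the log2 change at 24h. One member that this rule names is not reported here. Alternatives changed the distance limit, the merging, the start sites, the libraries required, peak strength, chromosomes, the reference regions, the ranking, centring, missing peaks and the libraries used.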

Additional observations from a re-analysis of the deposited data

How the results depend on the processing

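Members stayed under nearer regions in mean call frequency and mean rank under every alternative run. With peaks of -log10 q of at least 10, the difference in relative call frequency was 0.00308 for 4h against 0h. With the 20000 peaks of highest -log10 p, the difference in relative call frequency was 0.00134 for 4h against 0h. Against nearer regions off promoters, the difference in relative call frequency was -0.00379 for 24h against 0h, of the opposite sign to the 0.0372 against all nearer regions. With a limit of 200000 bp, the contrast in rank difference was -0.153 for 4h against 0h. With regions called in at least 3 libraries, the contrast in rank difference was -0.0118 for 4h against 0h. Against nearer regions off promoters, the contrast in rank difference was -0.501 for 4h against 0h and 81.9% for all 5 conditions. By fold enrichment, the contrast in rank difference was 0.792 for ERKi 4h against 4h, 1.26 for ERKi 24h against 24h, 1.03 for ERKi over both times and 86.1% for all 5 conditions. By -log10 p, the contrast in rank difference was 0.205 for ERKi 4h against 4h, 0.272 for ERKi 24h against 24h and 0.238 for ERKi over both times. With replicate number as a block, the contrast in rank difference for all 5 conditions stayed at 23.2% and its p changed. The exact permutation p was 0.0034 (adjusted p = 0.0204) with the block and 0.567 (adjusted p = 0.960) without it. With the 20000 peaks of highest -log10 p, all-or-none shares of members were 3.13% for 4h against 0h, higher, 0.570% for ERKi 4h against 4h, higher, 1.95% for ERKi 4h against 4h, lower and 2.99% for ERKi 24h against 24h, higher. With start sites of all genes, all-or-none shares of members were 0.129% for ERKi 4h against 4h, higher. With peaks of -log10 q of at least 10, all-or-none shares of members were 0.144% for ERKi 4h against 4h, higher. With missing peaks filled, limma shares of members were 1.59% for 4h against 0h, higher, 0.112% for 4h against 0h, lower, 10.1% for 24h against 0h, higher, 4.55% for 24h against 0h, lower, 0.0895% for ERKi 4h against 4h, lower, 0.805% for ERKi 24h against 24h, higher and 1.89% for ERKi 24h against 24h, lower. Centred on promoter regions, limma shares of members were 2.24% for 4h against 0h, higher, 0% for 4h against 0h, lower, 4.83% for 24h against 0h, lower, 0% for ERKi 4h against 4h, lower, 0.492% for ERKi 24h against 24h, higher and 2.68% for ERKi 24h against 24h, lower. On log2 fold enrichment, limma shares of members were 0.358% for 4h against 0h, higher, 0.0447% for 4h against 0h, lower, 3.76% for 24h against 0h, higher, 3.22% for 24h against 0h, lower, 0% for ERKi 4h against 4h, lower, 1.12% for ERKi 24h against 24h, higher and 0.715% for ERKi 24h against 24h, lower. With replicate number as a block, limma shares of members were 18.8% for 4h against 0h, higher, 9.88% for 4h against 0h, lower, 31.5% for 24h against 0h, higher, 27.4% for 24h against 0h, lower, 0.983% for ERKi 4h against 4h, higher, 7.82% for ERKi 4h against 4h, lower, 17.3% for ERKi 24h against 24h, higher and 21.1% for ERKi 24h against 24h, lower. After quantile normalisation, limma shares of members were 1.30% for 4h against 0h, lower and 1.16% for ERKi 4h against 4h, lower.

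With a library left out, the values ran as follows. Relative call frequency ran from -0.0562 to 0.00736 for 4h against 0h, 0.00645 to 0.0624 for 24h against 0h, -0.0560 to 0.0108 for ERKi 4h against 4h, -0.0973 to -0.0236 for ERKi 24h against 24h, -0.0634 to -0.0260 for ERKi over both times, 13.0 to 36.5% for all 5 conditions and -0.251 to -0.226 for members against nearer regions. Rank differences ran from -1.11 to 1.05 for 4h against 0h, 0.867 to 2.97 for 24h against 0h, -1.78 to 0.750 for ERKi 4h against 4h, -1.61 to 0.854 for ERKi 24h against 24h, -1.06 to 0.203 for ERKi over both times, 17.0 to 36.9% for all 5 conditions and -16.7 to -16.2 for members against nearer regions. All-or-none shares ran from 1.89 to 3.61% for 4h against 0h, higher, 1.07 to 2.88% for 4h against 0h, lower, 9.09 to 17.3% for 24h against 0h, higher, 4.39 to 7.77% for 24h against 0h, lower, 0.447 to 1.34% for ERKi 4h against 4h, higher, 0.906 to 1.98% for ERKi 4h against 4h, lower, 1.93 to 5.45% for ERKi 24h against 24h, higher and 2.91 to 6.37% for ERKi 24h against 24h, lower. limma shares ran from 3.17 to 7.15% for 4h against 0h, higher, 0.0894 to 0.671% for 4h against 0h, lower, 14.5 to 21.1% for 24h against 0h, higher, 8.40 to 14.6% for 24h against 0h, lower, 0 to 0% for ERKi 4h against 4h, higher, 0.0447 to 0.715% for ERKi 4h against 4h, lower, 1.43 to 5.77% for ERKi 24h against 24h, higher and 4.83 to 8.85% for ERKi 24h against 24h, lower. Sign changes on leaving out a library arose for call frequency at 4h and ERKi 4h and for rank at 4h and in the 3 ERKi contrasts, none of which passed a test in full. All-or-none shares go up by construction when a library is left out. The other 237 values under alternatives with all libraries, and 325 with a library left out, kept their direction and side of the threshold or stayed within 1.5 times. With missing peaks filled, the median log2 change of all regions at 24h was 0.23, against -0.067. The causes were not tested. Read depth is unknown, and 3 libraries per condition limit the tests of call frequency.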

Other observations

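Some other genes were nearest to many distal regions. Of 52 members nearest to Cited2, all upstream, 14 were in the limma fit, of which 2 were higher and 0 lower at 24h of TGF-β, and 0 passed under ERKi at 24h. Of 45 nearest to Tbl1xr1, 3 of 10 in the fit were higher and 0 lower at 24h, and 0 passed under ERKi at 24h. Of all members in the fit, 19.7% were higher and 14.3% lower at 24h, and 5.19% and 8.67% under ERKi. All tested regions gave 10.3% and 7.85% at 24h, and 3.53% and 3.97% under ERKi. The 33 members nearest to Sox4, all downstream, included 7 gained as calls at 24h against 0h and 4 lost with ERKi at 24h, beside 6.35% gained and 1.56% lost of all kept regions. Of them 16, 14 and 17 were called at 0h, 23, 22 and 27 at 24h and 18, 15 and 22 at ERKi 24h, so that 0h and 24h did not overlap. Of all members, on average 54.4% were called at 0h, 62.4% at 24h and 60.5% at ERKi 24h.

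Adhesion and guidance genes had 277 members near 28 of 52 genes, and of 67 in the fit 17 were higher and 15 lower at 24h by pileup, and 2 and 4 on fold enrichment. Robo1 encodes a guidance receptor. The member 820 kb downstream of it was at 35.6, 17.4 and 33.2 at 0h and 85.9, 71.1 and 88.6 at 24h (2.03 ± 0.27, limma adjusted p = 5.2e-05). One 145 kb downstream of Pcdh10, a protocadherin gene, was at 85.9, 75.1 and 90.4 at 0h and 30.8, 44.5 and 59.2 at 24h (-1.64 ± 0.30, limma adjusted p = 0.000960). Neither passed under ERKi at 24h.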
